A study of Mus musculus with 15 samples.

Results

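The genes described here are 10 genes of fatty acid synthesis and of the first steps that use the new fatty acids, namely Fasn, Acaca, Acacb, Scd1, Scd2, Elovl6, Srebf1, Me1, Acly and Thrsp. They were found by symbol, and all 10 were present among the 23893 rows of the kidney count table and passed the filter on low counts. RNA was sequenced from kidneys of male C57BL/6 mice, an inbred laboratory strain, whose ages the labels do not give. The CCl4+EtOH group (n = 3) had carbon tetrachloride, a solvent toxic to liver and kidney, injected into the abdomen over 6 weeks and ethanol over the next 4 weeks; the titles of these samples name CCl4 again beside EtOH, and the source descriptions do not. The EtOH group (n = 4) had olive oil injections over 6 weeks and then ethanol over 4 weeks. The CCl4 group (n = 4) had CCl4 over 6 weeks, and replicates 3 and 4 had a further 4 weeks at a reduced dose. The olive oil group (n = 3) had the vehicle alone over 6 weeks. Because olive oil mice ended at 6 weeks and both ethanol groups at 10 weeks, time and ethanol cannot be told apart against olive oil, whereas CCl4+EtOH and EtOH mice had the same number of weeks.

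De novo lipogenesis turns citrate that leaves the mitochondrion into acetyl-CoA, then malonyl-CoA, then palmitate, with NADPH as the reducing agent, and later enzymes lengthen and desaturate the product. The transcription factor SREBP-1c, encoded by Srebf1, and the carbohydrate-responsive factor ChREBP are known to raise the transcription of most of these enzymes in liver and fat. Proximal tubule cells of the kidney mainly burn fatty acids, while fat tissue lies around the kidney and in its sinus, so the same transcripts can come from either tissue in a whole-kidney extract.

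Promoters are shown for 3 members on which the results below turn: Fasn and Thrsp, on which 1 CCl4 library weighed most, and Me1, which fell in the CCl4+EtOH group. Each runs 5′ to 3′ from 250 bases before to 50 bases after the gene start, from RefSeq on build GRCm38.p6, with matches to CCAAT, the box bound by NF-Y, or GGGCGG, the GC box bound by Sp1, in capitals on either strand. The Fasn window is chr11:120824498-120824797, the Thrsp window chr7:97417501-97417800 and the Me1 window, the first of 2 in the table, chr9:86695865-86696164, all on the minus strand.
Fasn: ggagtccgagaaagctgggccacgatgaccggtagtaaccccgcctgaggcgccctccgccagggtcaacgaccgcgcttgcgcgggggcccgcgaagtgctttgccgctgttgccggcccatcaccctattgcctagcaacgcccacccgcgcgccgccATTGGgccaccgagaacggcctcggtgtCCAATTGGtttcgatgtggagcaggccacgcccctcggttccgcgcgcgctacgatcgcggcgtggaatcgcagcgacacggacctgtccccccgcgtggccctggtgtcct
Thrsp: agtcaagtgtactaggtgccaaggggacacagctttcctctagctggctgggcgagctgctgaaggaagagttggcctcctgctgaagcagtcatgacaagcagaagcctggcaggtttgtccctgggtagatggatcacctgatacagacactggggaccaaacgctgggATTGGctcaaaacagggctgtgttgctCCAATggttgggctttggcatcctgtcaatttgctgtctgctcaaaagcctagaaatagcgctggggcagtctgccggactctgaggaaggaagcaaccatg
Me1: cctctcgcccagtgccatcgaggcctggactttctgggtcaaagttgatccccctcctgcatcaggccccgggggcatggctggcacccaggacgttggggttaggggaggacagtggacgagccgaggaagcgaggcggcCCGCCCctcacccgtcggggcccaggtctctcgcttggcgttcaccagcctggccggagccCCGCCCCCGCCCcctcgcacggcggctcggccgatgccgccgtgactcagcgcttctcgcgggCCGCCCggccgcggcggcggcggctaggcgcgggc
The Fasn window held 3 CCAAT boxes and no GC box, and 2 of the 3, starting at -62 and -59, share bases on opposite strands. The Thrsp window held 2 CCAAT boxes and no GC box, and the first Me1 window 4 GC boxes and no CCAAT box. The second Me1 window, not printed, held 1 CCAAT box and 0 GC boxes, so the Me1 count depends on the start used. Promoters of 8 of the 10 members were matched, with 11 windows in all. CCAAT was found in 7 of the 11 windows, and 37.4% of all 32851 promoters in the table held it. GGGCGG was found in 4 of the 11 windows, against 35.7% of all promoters. The sterol regulatory element TCACNCCAC and the E box CACGTG were found in 0 of the 11 windows, and in 1.24% and 7.15% of all promoters; these are letter matches in a short window.

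Library totals ran from 16.4 to 23.6 M counts, and the fewest reads of a member in a library were 344, except for Thrsp with 44. Levels are CPM, counts relative to the size of the TMM-scaled library. All 9 kidney tubule and glomerulus markers had counts in every library. Transcripts of the adrenal gland were found in EtOH replicates 1 to 3, where the sum of 12 adrenal markers was 764 to 1218 CPM, against 5.60 to 27.1 CPM in the other 11 libraries. Tubule injury also differed within the CCl4+EtOH group. Havcr1, the injury marker KIM-1, stood at 2000.4, 1151 and 108 CPM in CCl4+EtOH replicates 1, 2 and 3, against 3.39 to 16.3 CPM elsewhere.

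**Figure D1:**
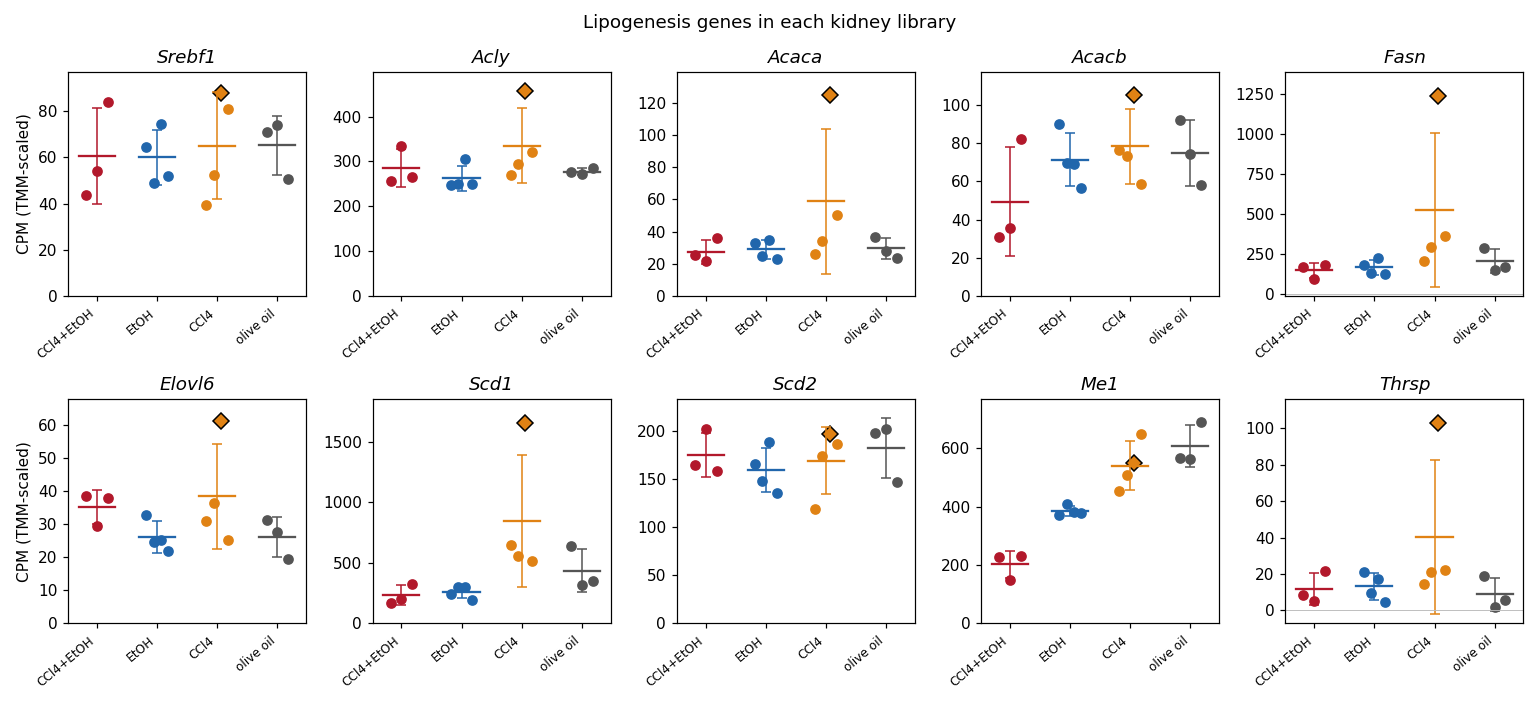
CPM (vertical axis, linear) of each lipogenesis gene in the 14 kidney libraries, with 1 point per library, a bar at the group mean and whiskers of 1 SD; the diamond marks CCl4 replicate 3. Me1 is lowest in CCl4+EtOH libraries, and the diamond is the highest point in 8 of 10 panels.

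Me1, which encodes the cytosolic malic enzyme that makes NADPH while turning malate into pyruvate, was the member that fell in the combined group. It stood at 228, 149 and 231 CPM in CCl4+EtOH kidneys, at 372, 409, 380.2 and 376.7 CPM in EtOH kidneys, at 453, 508, 551 and 649 CPM in CCl4 kidneys, and at 567, 564 and 691 CPM in olive oil kidneys. All 3 CCl4+EtOH libraries lay below all 11 others, and all 4 EtOH libraries lay below every CCl4 and olive oil library. The means were 202 ± 46.3 CPM in CCl4+EtOH (SD, n = 3), 384 ± 16.5 CPM in EtOH (SD, n = 4), 540.2 ± 83.1 CPM in CCl4 (SD, n = 4) and 607 ± 72.3 CPM in olive oil kidneys (SD, n = 3). CCl4+EtOH replicate 3, with a Havcr1 level of 108 CPM, had 231 CPM of Me1, and replicate 1, with a Havcr1 level of 2000.4 CPM, had 228 CPM. Replicate 2, whose Havcr1 level lay between theirs, had the lowest Me1 level, 149 CPM. The part of injury in the Me1 level was not tested. EtOH replicate 4, whose adrenal markers summed to 9.19 CPM, lay within the range of the other EtOH libraries at 376.7 CPM.

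Against olive oil, Me1 fell in CCl4+EtOH kidneys, with a log2 change of -1.59 ± 0.17 (SE) and an adjusted p of 5.9e-05 in edgeR's quasi-likelihood test. It was the only 1 of the 10 members to pass, while 35.4% of all 16105 genes tested passed, 16.6% of all genes as lower. It was also the only member whose libraries did not overlap, as for 43.7% of all genes. The median log2 change of the 10 members was -0.10, against 0.02 over all genes. Against EtOH alone, the comparison matched in weeks, Me1 fell, with a log2 change of -0.93 ± 0.16 (SE; adjusted p = 0.000963), again the only member to pass beside 34.2% of all genes (16.2% as lower), and the only one without overlap beside 32.4%. With EtOH replicate 4 alone standing for the EtOH group, the log2 change was -0.91 and the adjusted p 0.0700. Against CCl4 alone, Me1 fell, with a log2 change of -1.42 ± 0.16 (adjusted p = 9.14e-05), or -1.57 against the 10-week CCl4 libraries alone (adjusted p = 0.000237).

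In EtOH alone, Me1 differed from olive oil by -0.66 ± 0.15 (log2, SE), with an adjusted p of 0.0974, so it did not pass, although its libraries did not overlap; 0 of 10 members passed there in edgeR, beside 0.168% of all genes. At an unadjusted p under 0.05 there was 1 member, beside 10.4% of all genes, and DESeq2 called 1 member, beside 2.17%. Libraries did not overlap for 2 members, Me1 and Scd1, as for 11.9% of all genes. Me1 did pass in DESeq2 (adjusted p = 0.00464) and in a fit of those 2 groups only (adjusted p = 0.0178), and also without CCl4+EtOH replicate 2 (adjusted p = 0.0480) or 3 (adjusted p = 0.0442). In CCl4 alone it differed from olive oil by -0.17 ± 0.15 (adjusted p = 1). The log2 change with CCl4 in ethanol-treated mice minus that in mice without ethanol was -0.76 ± 0.22 (interaction, adjusted p = 0.0472), and Me1 was the 1 member to pass beside 9.12% of all genes (3.63% as lower). That call was held in 3 of 14 fits that each left out 1 library, with adjusted p of up to 0.121, and without CCl4 replicate 3 the adjusted p was 0.0730.

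**Figure D2:**
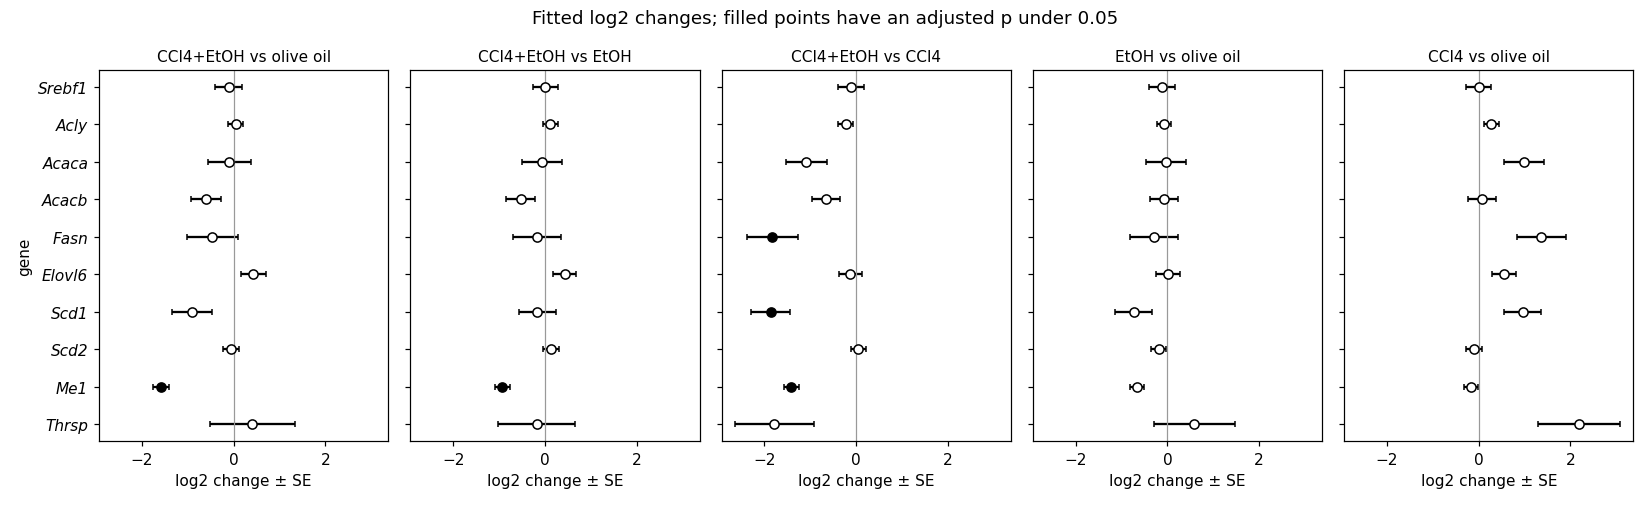
Fitted log2 change with its SE (horizontal axis) of each lipogenesis gene (rows) in 5 comparisons, the first-named group over the second; filled points passed an adjusted p of 0.05. Me1 is filled in the 3 comparisons of CCl4+EtOH, and Fasn and Scd1 only against CCl4.

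Fasn encodes fatty acid synthase, the multi-enzyme that builds palmitate. Its levels were 169, 93.3 and 181 CPM in CCl4+EtOH kidneys, 184, 134, 225 and 125 CPM in EtOH kidneys, 208, 294, 1240.0 and 363 CPM in CCl4 kidneys, and 290.2, 153 and 169 CPM in olive oil kidneys. CCl4 replicate 3 stood apart, and the other CCl4 libraries overlapped the EtOH and olive oil ones but lay above all CCl4+EtOH libraries. Fasn fell in CCl4+EtOH against CCl4, with a log2 change of -1.83 ± 0.55 (SE; adjusted p = 0.0223), 1 of 3 members that passed, all lower, beside 34.8% of all genes, or 16.2% as lower. The libraries did not overlap for the same 3 members, Me1, Fasn and Scd1, as for 35.1% of all genes. Leaving out CCl4 replicate 3 took this to -0.96 ± 0.32 (adjusted p = 0.0391), a 1.95-fold difference in place of 3.56-fold. The call was lost without CCl4+EtOH replicate 1 (adjusted p = 0.0686) or 2 (adjusted p = 0.102) and in a fit of those 2 groups only (adjusted p = 0.0615). Against olive oil Fasn differed by -0.46 ± 0.56 in CCl4+EtOH (adjusted p = 0.546) and against EtOH by -0.18 ± 0.52 (adjusted p = 0.823), neither of which passed.

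Scd1 encodes stearoyl-CoA desaturase, which puts the double bond into saturated fatty acids. It stood at 168, 201 and 326 CPM in CCl4+EtOH kidneys, at 245, 303, 301 and 192 CPM in EtOH kidneys, at 643, 554, 1655 and 519 CPM in CCl4 kidneys, and at 637, 317 and 349.9 CPM in olive oil kidneys. Both ethanol groups lay below every CCl4 library, and EtOH libraries also lay below every olive oil library. Scd1 fell in CCl4+EtOH against CCl4, with a log2 change of -1.86 ± 0.42 (SE; adjusted p = 0.00495), or -1.30 without CCl4 replicate 3 (adjusted p = 0.00625). Against olive oil it differed by -0.91 ± 0.43 in CCl4+EtOH (adjusted p = 0.118) and by -0.74 ± 0.40 in EtOH (adjusted p = 0.571). Neither passed, although the CCl4+EtOH difference did without CCl4 replicate 3, a library of neither group (-0.91, adjusted p = 0.0305).

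EtOH against CCl4 gave no call in edgeR among the 10 members, beside 0.546% of all genes, with 6 members at an unadjusted p under 0.05, beside 11.1% of all genes, and 2 called in DESeq2, beside 2.32%. Scd1 differed there by -1.70 ± 0.38 (log2, SE; adjusted p = 0.0697), Fasn by -1.65 ± 0.50 (adjusted p = 0.187) and Me1 by -0.49 ± 0.14 (adjusted p = 0.168). Without CCl4 replicate 3 these differences came to -1.14, -0.79 and -0.48. Those of the other members at an unadjusted p under 0.05 went from -1.01 to -0.34 for Acaca, from -0.56 to -0.24 for Elovl6 and from -0.35 to -0.16 for Acly. The libraries of the 2 groups did not overlap for Scd1 and Me1, as for 8.72% of all genes. DESeq2 called Scd1 (adjusted p = 0.0144) and Me1 (adjusted p = 0.0411).

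The acetyl-CoA carboxylases make malonyl-CoA, in the cytosol (Acaca) and at the mitochondrial outer membrane (Acacb), where it restrains fatty acid import. Acaca stood at 25.3, 21.5 and 36.0 CPM in CCl4+EtOH, 33.2, 25.2, 34.9 and 22.8 CPM in EtOH, 26.1, 34.2, 125 and 50.4 CPM in CCl4, and 37.0, 27.9 and 23.9 CPM in olive oil kidneys. The groups overlapped in every pair of treatments. Its change in CCl4+EtOH against CCl4 was -1.09 ± 0.44 (log2, SE; adjusted p = 0.0737), and -0.42 (adjusted p = 0.247) without CCl4 replicate 3; it passed without CCl4 replicate 1 (-1.33, adjusted p = 0.0255) and against the 10-week CCl4 libraries alone (-1.66, adjusted p = 0.00555). Acacb had 30.8, 35.6 and 82.0 CPM in CCl4+EtOH, 89.8, 69.7, 69.3 and 56.6 CPM in EtOH, 76.3, 73.1, 105 and 58.5 CPM in CCl4, and 92.2, 74.3 and 58.0 CPM in olive oil kidneys.

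For Acacb, CCl4+EtOH replicates 1 and 2 lay below every library of the other groups and replicate 3 within their range. This split followed the injury marker, since replicate 3 had the lowest Havcr1 level of the group. White adipocyte markers split the libraries in the same way, with sums of 161, 209.95 and 940 CPM in replicates 1, 2 and 3, as did Ucp1 at 11.5, 8.31 and 94.2 CPM; the part of injury or of fat in the Acacb level was not tested. With all 3 libraries Acacb differed by -0.60 ± 0.33 against olive oil (adjusted p = 0.173), -0.53 ± 0.31 against EtOH (adjusted p = 0.202) and -0.66 ± 0.31 against CCl4 (adjusted p = 0.113), none of which passed. Without CCl4+EtOH replicate 3 it passed in all 3, at -1.18 (adjusted p = 0.00289), -1.11 (adjusted p = 0.00322) and -1.24 (adjusted p = 0.00160), and the interaction also passed at -1.17 (adjusted p = 0.0164). Calls over all genes rose in that fit as well, from 35.4%, 34.2% and 34.8% to 45.2%, 45.2% and 45.1%. Interaction calls went from 9.12% to 29.8% of all genes.

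Scd2, a second desaturase, Elovl6, which lengthens palmitate, Acly, which splits citrate to acetyl-CoA, and Srebf1, which encodes the regulator SREBP-1, passed in 0 of 7 comparisons of treatments and schedules in edgeR, nor did any of them pass the interaction. Srebf1 averaged 60.5 ± 20.8 CPM in CCl4+EtOH (SD, n = 3), 60.0 ± 11.7 CPM in EtOH (SD, n = 4), 65.1 ± 23.0 CPM in CCl4 (SD, n = 4) and 65.2 ± 12.9 CPM in olive oil kidneys (SD, n = 3). Its fitted differences between treatments were within 0.12 of 0 on the log2 scale, each smaller than its SE. Acly averaged 286 ± 43.3 CPM in CCl4+EtOH, 263.02 ± 27.9 CPM in EtOH, 335 ± 83.4 CPM in CCl4 and 277.4 ± 7.12 CPM in olive oil kidneys, and Scd2 175 ± 23.4, 159.8 ± 23.1, 169.7 ± 34.8 and 183 ± 30.9 CPM in the same groups (SD, n as above). Elovl6 had 38.5, 29.4 and 38.0 CPM in CCl4+EtOH kidneys, against 31.4, 27.6 and 19.5 CPM in olive oil kidneys, a difference of 0.43 ± 0.28 (log2, SE; adjusted p = 0.245). A p that misses the threshold does not show that these levels were alike.

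Thrsp, which encodes the thyroid hormone-responsive SPOT14 protein of lipogenic tissues, had the fewest counts of the members. It stood at 8.38, 4.92 and 21.7 CPM in CCl4+EtOH kidneys, 21.2, 9.69, 17.0 and 4.56 CPM in EtOH kidneys, 14.4, 20.8, 103 and 22.4 CPM in CCl4 kidneys, and 19.1, 1.94 and 5.69 CPM in olive oil kidneys. Apart from CCl4 replicate 3, the libraries of all groups overlapped. Thrsp passed in no comparison, with -1.79 ± 0.86 in CCl4+EtOH against CCl4 (log2, SE; adjusted p = 0.127) and 2.19 ± 0.89 in CCl4 against olive oil (adjusted p = 1).

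CCl4 alone against olive oil gave 0 called members, as it gave 0% of all 16105 genes; 4 members had an unadjusted p under 0.05, beside 3.97% of all genes, and DESeq2 called 0 members and 1 of the 16105 genes. The 4 were Fasn (1.37 ± 0.54), Scd1 (0.96 ± 0.41), Acaca (0.99 ± 0.44) and Thrsp (2.19 ± 0.89), each log2 ± SE with an adjusted p of 1. Without CCl4 replicate 3 they came to 0.50, 0.40, 0.32 and 1.13. CCl4 and olive oil libraries overlapped for all 10 members, and did not overlap for 7.22% of all genes.

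CCl4 replicate 3 was the highest of the 14 libraries in 8 of the 10 members, all but Scd2 and Me1. Its level over the mean of the other 3 CCl4 libraries was 5.37-fold for Thrsp, 4.30-fold for Fasn, 3.38-fold for Acaca, 2.89-fold for Scd1 and 1.99-fold for Elovl6. It was 1.55-fold for Acly, 1.53-fold for Srebf1, 1.52-fold for Acacb, 1.23-fold for Scd2 and 1.03-fold for Me1. Fasn rested on 20993 reads in that library and Thrsp on 1746, so counting error is small beside these ratios. The library is 1 of the pair with the 10-week schedule, and its partner, CCl4 replicate 4, had 363 CPM of Fasn and 519 CPM of Scd1, against 208 and 294 CPM of Fasn and 643 and 554 CPM of Scd1 in the 6-week pair. Between the schedules, 10 over 6 weeks, 0 of 10 members passed in edgeR (0% of 16442 genes), 4 had an unadjusted p under 0.05, beside 6.67% of all genes, and DESeq2 called 1, Acaca (adjusted p = 0.0318), beside 0.152%. The libraries did not overlap for 7 members, as for 47% of all genes with 2 libraries against 2. The 4 were Fasn at 1.67 ± 0.52 (log2, SE, adjusted p = 0.602), Acaca at 1.54 ± 0.38 (adjusted p = 0.535), Srebf1 at 0.88 ± 0.29 (adjusted p = 0.615) and Acly at 0.46 ± 0.18 (adjusted p = 0.699). Without CCl4 replicate 3, which leaves 1 library at 10 weeks, they came to 0.53, 0.74, 0.82 and 0.19.

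**Figure D3:**
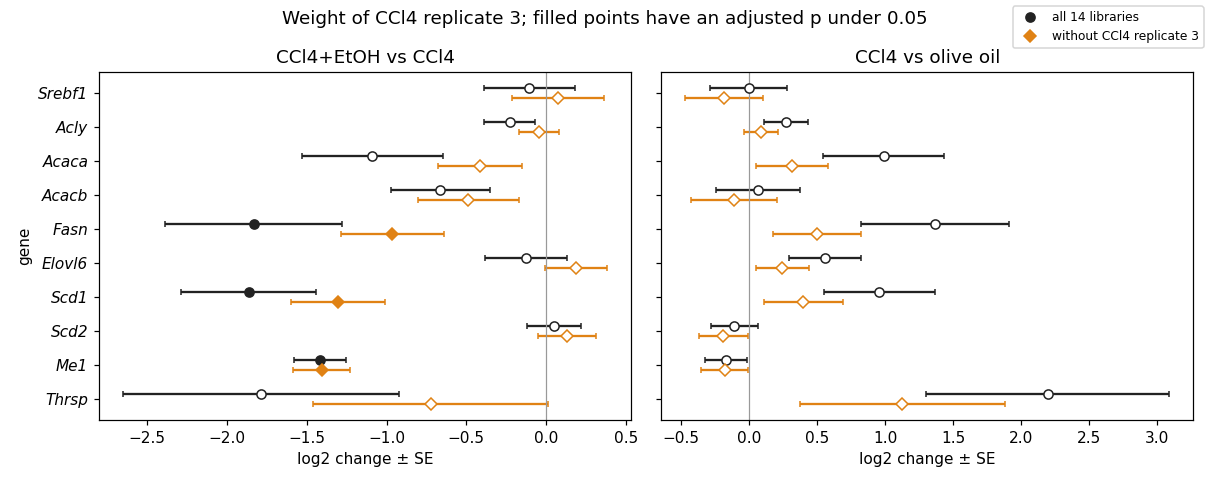
Log2 change with its SE (horizontal axis) of each lipogenesis gene (rows) with all 14 libraries (circles) and without CCl4 replicate 3 (diamonds); filled points passed an adjusted p of 0.05. Fasn in CCl4+EtOH against CCl4 is -1.83 with all libraries and -0.96 without that one, while Me1 is -1.42 and -1.41.

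Fat transcripts were also high in CCl4 replicate 3. The sum of 12 white adipocyte markers was 161, 209.95 and 940 CPM in CCl4+EtOH libraries, 1133, 482, 313 and 382 CPM in EtOH libraries, 462, 342, 871 and 355 CPM in CCl4 libraries, and 374, 132 and 212 CPM in olive oil libraries. CCl4+EtOH replicate 3, EtOH replicate 1 and CCl4 replicate 3 thus shared a high white adipocyte sum. All 12 markers had counts in 13 libraries and 11 in olive oil replicate 2, where the adipokine gene Lep was at 0. Ucp1, the uncoupling protein that defines brown fat, was likewise highest in these 3, at 94.2, 119.8 and 119 CPM, against 0 to 21.2 CPM in the other 11. Among other brown fat markers in the 3 libraries, Cidea was at 26.6, 26.4 and 44.1 CPM and Elovl3 at 0.82, 2.73 and 6.38 CPM. Dio2 was at 3.54 CPM in CCl4 replicate 3, the maximum of its group, beside a mean of 0.88 CPM in the other CCl4 libraries. Its group maxima were 4.53 CPM in CCl4+EtOH, 3.67 CPM in EtOH and 1.64 CPM in olive oil kidneys. The sum of all 5 brown markers was 238, 272.2 and 313 CPM, highest in CCl4 replicate 3. That sum includes Ppargc1a, at 139 CPM in CCl4 replicate 3 beside a mean of 114 CPM in olive oil kidneys. Beside white adipocyte sums of 940, 1133 and 871 CPM, Fasn was 181 CPM in CCl4+EtOH replicate 3, 184 CPM in EtOH replicate 1 and 1240.0 CPM in CCl4 replicate 3. The part of fat tissue in the Fasn, Scd1, Acaca, Acacb and Thrsp levels was not tested, and fewer cells of a type and less RNA per cell cannot be told apart in bulk kidney.

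**Figure D4:**
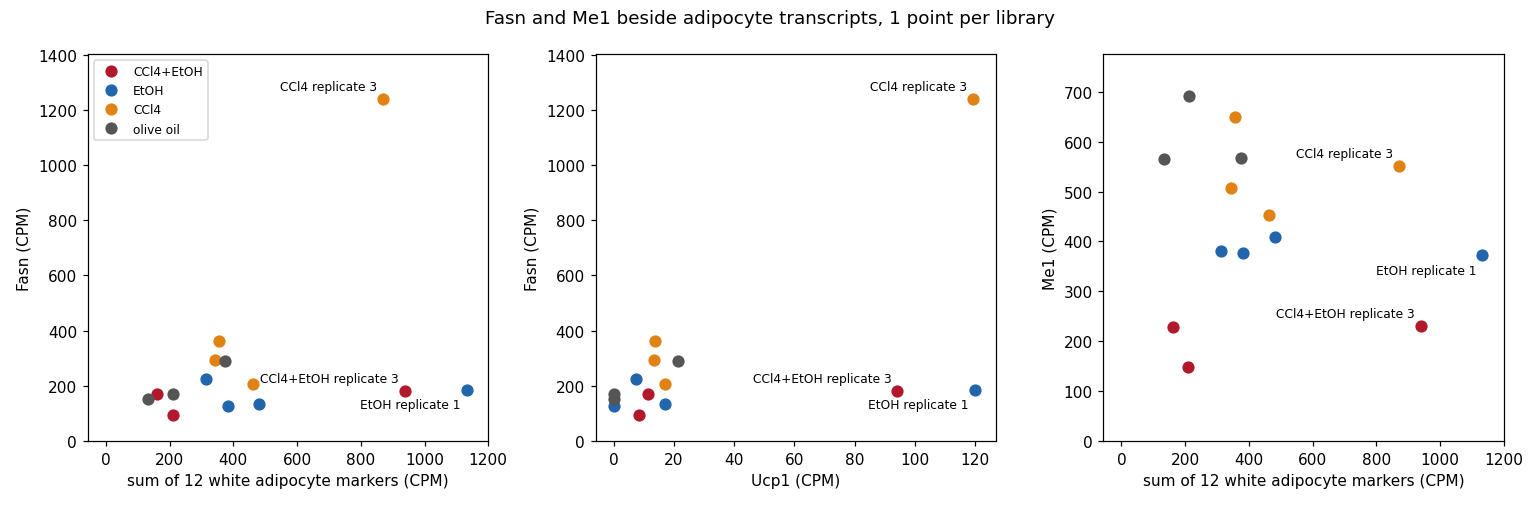
Fasn and Me1 (vertical axes, CPM) beside the summed CPM of 12 white adipocyte markers or Ucp1 (horizontal axes, CPM), 1 point per kidney library, coloured by group. CCl4 replicate 3 lies at 1240.0 CPM of Fasn, while CCl4+EtOH replicate 3 and EtOH replicate 1, with white adipocyte sums of 940 and 1133 CPM beside its 871 CPM, lie at 181 and 184 CPM; Me1 in the same 3 libraries lies at 231, 372 and 551 CPM, listed as CCl4+EtOH, EtOH and CCl4.

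Compared between genes per kilobase of merged exon, Me1 ranked highest in olive oil kidneys, at 168 ± 20.05 CPM per kb (SD, n = 3), followed by Scd1 at 89.9 ± 36.4, Acly at 60.2 ± 1.54, Scd2 at 33.5 ± 5.67, Fasn at 20.3 ± 7.46, Srebf1 at 15.2 ± 2.99, Acacb at 8.52 ± 1.95, Thrsp at 6.98 ± 7.07, Elovl6 at 4.27 ± 0.99 and Acaca at 3.11 ± 0.70. Neighbours Scd1 and Acly, Fasn and Srebf1, Acacb and Thrsp, Thrsp and Elovl6, and Elovl6 and Acaca overlapped within 1 SD. In CCl4+EtOH kidneys Acly came first at 61.9 ± 9.40 CPM per kb, with Me1 at 56.1 ± 12.8 and Scd1 at 47.9 ± 17.3, all within 1 SD of each other (n = 3). Some exons overlap another gene: 61 bases of Scd2 with Mir5114, 109 of Srebf1 with Rai1 on the opposite strand and 30 of Me1 with A330041J22Rik on the opposite strand.

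In CCl4+EtOH against olive oil, 0 of 16 regulators of lipogenesis rose and 5 fell, among them Scap, which escorts SREBP to its site of cleavage, at -0.64 ± 0.10 (log2 change, SE; adjusted p = 0.000552), Nr1h3, the nuclear receptor LXR-alpha, at -0.54 ± 0.11 (adjusted p = 0.00219), and Mlxipl, which encodes ChREBP, at -0.44 ± 0.13 (adjusted p = 0.0159). The median of the list was -0.18, against 0.02 over all genes. Of all genes tested, 16.6% were called lower and 18.9% higher. Of 10 genes that supply acetyl-CoA and NADPH, 5 fell and 0 rose, with a median of -0.40; Acss2, which makes acetyl-CoA from acetate, fell, at -1.27 ± 0.21 (adjusted p = 0.000708), and Mdh1, the cytosolic malate dehydrogenase, at -0.80 ± 0.16 (adjusted p = 0.00204). All 5 genes of malonyl-CoA handling fell, 1 of them Mlycd, the malonyl-CoA decarboxylase, at -1.03 ± 0.15 (adjusted p = 0.000394), with a median of -0.67 over the list; it also holds Mecr and Oxsm, enzymes of fatty acid synthesis inside the mitochondrion, at -0.67 ± 0.12 (adjusted p = 0.00114) and -0.47 ± 0.15 (adjusted p = 0.0233).

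Of 14 further elongation and desaturation genes tested, with a median of -0.33, 1 rose and 5 fell, among them Fads2, a desaturase of polyunsaturated fatty acids, at -0.84 ± 0.22 (adjusted p = 0.0109). Of 15 genes of glycerolipid synthesis, with a median of -0.24, 1 rose and 6 fell, including Mogat1, a monoacylglycerol acyltransferase, at -1.89 ± 0.20 (adjusted p = 5.97e-05), while Agpat4, an acylglycerolphosphate acyltransferase, rose by 0.83 ± 0.22 (adjusted p = 0.00990). Of 9 targets of LXR and SREBP-1 tested, with a median of 0.47, 3 rose, with Abca1, a cholesterol exporter, up by 1.91 ± 0.32 (adjusted p = 0.000971), and 3 fell, with Aacs, acetoacetyl-CoA synthetase, at -1.87 ± 0.28 (adjusted p = 0.000537). Macrophage markers moved in the same comparison, with 6 of 7 called higher, beside 18.9% of all genes. Their sums were 582, 702 and 529 CPM in CCl4+EtOH kidneys, against 304, 205 and 250 CPM in olive oil kidneys. Against EtOH 7 of 7 were called higher, beside 18.1% of all genes, and against CCl4 5 of 7, beside 18.7%. The part of macrophages in the LXR targets was not tested. In EtOH against olive oil and CCl4 against olive oil, 0 genes of these 6 lists passed. Without CCl4+EtOH replicate 3, 2 regulators rose and 8 fell, and 1 supply gene rose, beside calls in 45.2% of all genes. Fewer genes fell without CCl4+EtOH replicate 1 or 2, at 3 each for elongation and desaturation, glycerolipid synthesis and malonyl-CoA handling, beside calls in 24% of all genes in each, and 3 regulators fell without CCl4+EtOH replicate 2 or olive oil replicate 1 (28.9% of all genes called without the olive oil library). Malonyl-CoA genes that fell also came to 3 without olive oil replicate 3 (26.7% of all genes called); no elongation gene rose without that library, and no glycerolipid gene without olive oil replicate 2 (26% called). In a fit of CCl4+EtOH and olive oil only, 2 supply genes, 1 glycerolipid gene and 3 malonyl-CoA genes fell, beside calls in 21% of all genes. The counts of these lists stand beside the 35.4% of all genes that passed in the combined group, 16.6% as lower and 18.9% as higher. Nothing is read from these counts about the pathway as such.

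Against EtOH, 4 regulators, 6 supply genes, 4 elongation genes, all 5 malonyl-CoA genes and 7 glycerolipid genes fell in CCl4+EtOH kidneys, and 1 glycerolipid gene rose, beside 34.2% of all genes called (16.2% as lower); with EtOH replicate 4 as the lone EtOH library, 0, 0, 0, 1 and 1 of these lists' genes fell, beside calls in 335 of 16777 genes. Against CCl4, 5 regulators, 6 supply genes, 6 elongation genes, all 5 malonyl-CoA genes and 5 glycerolipid genes fell, and 1 regulator, 1 elongation gene and 1 glycerolipid gene rose, beside 34.8% of all genes called (16.2% as lower). Of the LXR and SREBP-1 targets, 3 rose and 1 fell against EtOH, and 3 rose and 2 fell against CCl4. In the CCl4+EtOH libraries the 6 tubule injury markers summed to 37009, 26927 and 4627 CPM, against 1185, 1075 and 680.5 CPM in olive oil kidneys, and 9 kidney markers to 8703, 9599 and 18067 CPM, against 18229, 19433 and 18355 CPM; the part of tubule injury or loss in these lists was not tested.

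The genes whose pattern lay closest to Fasn, by the root mean square difference of centred log2 CPM over 14 libraries, were Scd3 (0.44), Pnpla3 (0.59), Pygl (0.62), Cox7a1 (0.63) and Insig1 (0.64), where Fasn itself had an SD of 0.90. Scd3 was also the nearest to Scd1 (0.37) and to Acaca (0.38); it is a paralog of Scd1 and may share reads with it. Without CCl4 replicate 3 the nearest to Fasn were Polr3gl, Ppil6, Scd3, Mir6918 and Itga2b (0.35 to 0.36, where Fasn had an SD of 0.54), and 1 of the 5 genes named for Fasn, 1 of those for Scd1 and 0 of those for Acaca were the same as before.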

How the data were processed

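RNA of whole kidneys was sequenced, 1 library per mouse. The authors deposited raw read counts per gene symbol, without normalization; GSNAP and mouse build mm9 are named per the submitters' processing notes, with no version, while no counting program, annotation or strand setting is given in the sources used here. Reads of overlapping genes on opposite strands therefore cannot be told apart. Of 15 labelled samples 14 had a column; 1 olive oil sample was not analysed here. Of 23893 rows, 27 hold a date where a symbol should stand. These were dropped before any scaling and had 0.168% to 0.209% of the counts.

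Counts were tested in edgeR 4.0.16 (R 4.3.3): filterByExpr by group, TMM, robust quasi-likelihood F test of 14 libraries in 4 groups, Benjamini-Hochberg over 16105 genes, threshold 0.05. Every p printed is that adjusted p unless said otherwise. SE values equal the absolute log2 change over root F. The CCl4 schedules were compared in a 5-group fit of 16442 genes, which also gave values against the 10-week libraries. Alternatives were DESeq2 1.42.0, its size factors in edgeR, no filter, only the groups compared, EtOH replicate 4 as the only EtOH library, and each library left out. Exon lengths come from GENCODE M21, of another build than the counts, and promoters from RefSeq. Likeness used log2(CPM + 0.5) of genes with a mean of at least 5 CPM, predicted genes skipped. The scripts were tested on simulated data.

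The members and gene lists were chosen with earlier results of these data known. All members are named; of each other list, up to 4 genes past the threshold with the smallest p against olive oil could be named, and up to 2 against EtOH. No pair of libraries of a group agreed within sampling noise (chi-square per gene at least 10.3). The spread behind each p is that between mice, as the labels give them.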

Additional observations from a re-analysis of the deposited data

Results flagged for a closer look

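In each CCl4 or EtOH group of 4 libraries, the gap between the most extreme library and its neighbour was set against the group's range for the 10 members, 20 groups in all, and gaps above Dixon's critical value for 4 samples are given here. Chance alone passes it in about 1 in 20 groups only where samples are independent, normally distributed and treated alike. Here the levels were linear CPM, the CCl4 group mixed both schedules, and CCl4 replicate 3 was high in most members at once. The members were also chosen with earlier results of these data known. The 1 in 20 rate therefore cannot be applied to these gaps, which are given as descriptions only. CCl4 replicate 3 passed the critical value for Fasn (0.849, at 1240.0 CPM), Scd1 (0.891, at 1655 CPM) and Thrsp (0.910, at 103 CPM). The highest EtOH library for Acly, replicate 3 at 305 CPM, passed it as well (0.942), although the other 3 EtOH libraries lay between 247 and 251 CPM, so the gap is small in size.

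In the main fit, the response of Me1 to CCl4 differed between mice with and without ethanol, by -0.76 on the log2 scale (edgeR interaction, adjusted p = 0.0472). The same contrast called 9.12% of all genes. The Me1 call was held in 3 of 14 fits that each left out 1 library and in 2 of 5 other alternative fits. Olive oil mice also ended earlier than both ethanol groups, so time and treatment cannot be told apart in this contrast. Among mice given ethanol, Me1 was lower in 3 of 3 CCl4+EtOH libraries than in every EtOH library, as were 15.3% of all genes. That says nothing of the mice without ethanol.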

How the results depend on the processing

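Over the 80 pairs of a member and a comparison, the alternative fits gave 1500 results. Of these, 1395 were on the same side of the threshold with the same sign, 18 lost and 16 gained a call. The other 71 had the other sign, each of a difference called in neither fit. The Me1 calls in CCl4+EtOH over olive oil and over CCl4, and that of Scd1 over CCl4, were held in every alternative run; the one over EtOH was held in all but the fit with EtOH replicate 4 alone, where the lone library is assumed to vary like the others. No paired analysis was possible because every mouse has its own number and no number is shared between groups.

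Counts of members called moved as follows. Shares of all genes called are given in brackets. In 10 over 6 weeks DESeq2 called 1 (0.152%) in place of 0 (0%). With EtOH replicate 4 alone, which leaves 1 library in that group, only effect sizes are given in this paragraph. Me1 in CCl4+EtOH over EtOH was then -0.91 in place of -0.93, and its interaction -0.74 in place of -0.76. In CCl4+EtOH over CCl4, 4 were called against the 10-week libraries (22.8%) and 2 with only the groups compared (25.9%), in place of 3 (34.8%). In EtOH over CCl4, 1 was called against the 10-week libraries (0.359%), 2 in DESeq2 (2.32%) and 1 with only those groups (1.42%), in place of 0 (0.546%). In EtOH over olive oil, DESeq2 (2.17%) and the fit of those groups (0.607%) called 1 each in place of 0 (0.168%). In the interaction, 0 were called with the 10-week libraries (2.05%) and with no filter (5.36%), in place of 1 (9.12%). Leaving out 1 library gave 2 to 4 calls in CCl4+EtOH over CCl4 (21.3% to 45.1%), 1 to 2 over EtOH (19.6% to 45.2%) and 1 to 2 over olive oil (24% to 45.2%). It gave 0 to 1 in EtOH over olive oil (0.0183% to 0.939%) and 0 to 2 in the interaction (1.78% to 29.8%). Moves in the member counts thus came with moves in calls over all genes.

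Signs changed for differences called in neither fit. With EtOH replicate 4 alone, CCl4+EtOH over EtOH came to 0.26 for Acaca, 0.22 for Fasn, 0.25 for Scd1 and 1.33 for Thrsp, EtOH over olive oil to -0.26 for Elovl6 and -0.94 for Thrsp, and the interaction to 0.12 for Elovl6. With the 10-week CCl4 libraries, CCl4 over olive oil came to 0.072 for Scd2 and 0.37 for Srebf1, CCl4+EtOH over CCl4 to -0.13 for Scd2, and the interaction to -0.36 for Srebf1. With DESeq2 size factors Srebf1 in CCl4+EtOH over EtOH came to -0.00037. The log2 changes whose sign changed on leaving out 1 library had these ranges. In CCl4+EtOH over EtOH, Acaca ran -0.31 to 0.078, Acly ran -0.011 to 0.20, Fasn ran -0.35 to 0.069, Scd1 ran -0.50 to 0.020, Srebf1 ran -0.30 to 0.21, Thrsp ran -0.99 to 0.19. In CCl4+EtOH over olive oil, Acaca ran -0.34 to 0.088, Acly ran -0.081 to 0.13, Scd2 ran -0.20 to 0.019, Srebf1 ran -0.42 to 0.091, Thrsp ran -0.39 to 1.63. In EtOH over olive oil, Acaca ran -0.16 to 0.16, Acacb ran -0.22 to 0.11, Elovl6 ran -0.17 to 0.15, Fasn ran -0.46 to 0.053. In 10 over 6 weeks, Acacb ran -0.35 to 0.49, Elovl6 ran -0.41 to 0.86, Scd1 ran -0.21 to 1.47. In CCl4 over olive oil, Acacb ran -0.11 to 0.24, Scd2 ran -0.24 to 0.028, Srebf1 ran -0.18 to 0.18. In EtOH over CCl4, Acacb ran -0.26 to 0.042, Srebf1 ran -0.30 to 0.063. In the interaction, Acly ran -0.29 to 0.033, Elovl6 ran -0.28 to 0.19, Srebf1 ran -0.29 to 0.21. In CCl4+EtOH over CCl4, Elovl6 ran -0.28 to 0.19, Scd2 ran -0.087 to 0.13, Srebf1 ran -0.41 to 0.093. The cause was not tested. Counts of genes in the 6 pathway lists, whose alternatives were chosen after seeing the data, are given beside them where a library moved them. Groups of 3 or 4 mice and the wide spread of Thrsp and Fasn limit these tests.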
